A study of Sus scrofa with 24 samples.

Results

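Solute carrier transporters were examined in pig subcutaneous fat. A gene was a member when its symbol in the array files, or the symbol of the RefSeq accession given for its probe, began with SLC and a family number. SLC2A1, SLC2A4 and SLC27A1 were not included. The array held 233 probes for 124 such genes, and each gene was represented by its probe with the highest mean signal. A member was kept when, in 1 group or more, 6 or more of the 8 arrays had it well above background in the scanner's own call. This left 87 of 124 genes among 28601 kept probes of 43603. Among all named genes, 3762 of 4644 had a kept probe. The rule computes no difference between groups, but a member could be kept through 1 group alone.

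Total RNA of subcutaneous adipose tissue from 24 pigs weighing 115 kg was hybridised to 1-colour Cy3 arrays, with 1 array per pig and 8 pigs per group. RFIneg was the line with low residual feed intake and had free access to feed. RFIplR was the line with high residual feed intake, given feed at the level eaten by RFIneg. RFIpl was the same high line with free access to feed. Residual feed intake is the difference between the feed eaten and the feed predicted from growth and maintenance. RFIneg minus RFIpl compares the lines with both fed freely, RFIneg minus RFIplR compares them at 1 feeding level, and RFIplR minus RFIpl compares 2 feeding levels within the high line. The first and the last comparison share the RFIpl arrays.

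Solute carriers are membrane proteins that move small molecules and ions across the plasma membrane or the membranes of organelles, by facilitated diffusion or coupled to the gradient of another ion. In fat they supply the adipocyte with glucose, amino acids, lactate and fatty acids for lipid synthesis, exchange nucleotides and phosphate across the inner mitochondrial membrane, and distribute zinc and iron between the cytosol and vesicles. The families are numbered, and members of 1 family usually share a kind of substrate.

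Each probe is a 60-base oligonucleotide. The 5 sequences below belong to members with a difference past the test described further on, and they are shown because each result rests on 1 called probe, and in the case of SLC38A3 also because the name of the gene is uncertain. They are given 5′ to 3′ as in the array files. Each has a reading frame with no stop codon along its length.
SLC11A2: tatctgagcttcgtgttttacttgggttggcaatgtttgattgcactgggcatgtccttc
SLC38A3: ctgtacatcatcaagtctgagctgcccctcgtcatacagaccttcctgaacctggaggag
SLC26A6: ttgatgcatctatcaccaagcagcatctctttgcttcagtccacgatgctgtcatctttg
SLC16A7: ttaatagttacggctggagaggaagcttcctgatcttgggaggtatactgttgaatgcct
SLC25A27: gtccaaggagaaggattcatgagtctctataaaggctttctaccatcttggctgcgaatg
SLC11A2, SLC16A7 and SLC25A27 had 1 kept probe each, and SLC26A6 had 2. The probe of SLC38A3 carries that symbol in the name column, while its description names SLC38A5, a close relative that also carries glutamine, so the gene it measures is either. The probe of SLC23A2 has the same kind of conflict with SLC23A1.

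The arrays fell into 17 bright ones, with a 75th percentile of the processed intensity between 414 and 663, and 7 dim ones, between 69.4 and 94.4. The dim arrays were RFIneg 1 and 7, RFIplR 2, 4 and 6, and RFIpl 5 and 6, and their correlation with bright arrays was 0.769 to 0.825, where pairs of bright arrays had 0.936 to 0.991. All comparisons are therefore given from the fit over all 24 arrays (the pooled fit) and from the same fit with the brightness class as a block. Of 8 listed adipocyte markers 7 were on the array and all were well above background on all 24 arrays. Their summed level on bright arrays was 10.15 to 10.56 in RFIneg, 10.18 to 10.41 in RFIplR and 9.77 to 10.45 in RFIpl. On dim arrays it was 9.96 to 10.11 in RFIneg, 9.76 to 10.02 in RFIplR and 9.61 to 9.65 in RFIpl, which lay below both other groups. PLIN1, LIPE, CIDEC, LPL, ADIPOQ and FABP4 had their lowest mean in RFIpl, and CD36 had it in RFIplR. Of 8 muscle markers 6 were kept, without MYH2 and MB. RFIpl 2 stood apart with TNNT3, a muscle troponin, at 7.19, where RFIpl 1 had 1.72 and RFIpl 3, 4, 7 and 8 lay between -5.30 and -3.67. Of 8 keratinocyte and epithelial markers 5 were on the array, and their summed level on bright arrays was -0.10 to 1.44 in RFIneg, -0.30 to 1.19 in RFIplR and 1.56 to 5.97 in RFIpl. On the dim arrays that sum was -0.41 to -0.38 in RFIneg, -0.31 to 0.35 in RFIplR and 1.32 to 2.22 in RFIpl. RFIpl 7 and 8 had the highest sums, with SFN at 5.27 and 3.73 and DSP at 4.3 and 2.95. KRT8, CLDN3 and CLDN4 were higher on RFIpl 1 than on either of these arrays, so their rank rested on SFN and DSP. The part of these markers in the differences below was not tested. In whole tissue, fewer cells of a type and less RNA per cell cannot be told apart.

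Values are log2 of the processed intensity minus the 75th percentile of the same array, so that 0 is the level of the 75th percentile. Levels of different probes are not comparable with each other. Of the 87 kept members, 54 were well above background on all 24 arrays. The 37 members left out included 9 that were not well above background on any array, among them SLC2A2, the glucose carrier of liver and pancreatic islets, SLC12A1, a salt carrier of the kidney, and SLC30A8, a zinc carrier of insulin granules. At the edge of the rule, SLC11A2, SLC17A4, SLC22A2 and SLC26A6 were kept with exactly 6 arrays in their best group, with mean levels of -3.63, -4.56, -4.52 and -2.63. Among the members left out with exactly 5 were SLC15A2, SLC26A5, SLC34A3, SLC35E4, SLC38A4, SLC6A17 and SLC7A11, at mean levels of -5.05 to -4.46. SLC11A2, SLC22A2, SLC22A3, SLC23A2, SLC30A2, SLC31A1 and SLC35F3 were kept only through RFIpl, and SLC17A4 only through RFIneg, so that these members could pass more easily when high in that group.

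In the pooled fit no member passed in any comparison, at an adjusted p under 0.05 over all kept probes. In RFIneg minus RFIpl this was 0 of 87, where 0.206% of all kept probes passed, and 7 members had an unadjusted p under 0.05 (8.05%, against 6.86% of all probes). In RFIneg minus RFIplR it was 0 of 87, where 0.0% of all probes passed, and 2 members had an unadjusted p under 0.05 (2.3%, against 2.12%). In RFIplR minus RFIpl it was 0 of 87, where 0.297% of all probes passed, and 10 members had an unadjusted p under 0.05 (11.5%, against 8.19%). The test of any group difference passed none of 87, where 0.28% of all probes passed. In that test 6 members had an unadjusted p under 0.05 (6.9%, against 6.85% of all probes). The median log2 difference of the members was -0.01 in RFIneg minus RFIpl, -0.07 in RFIneg minus RFIplR and 0.04 in RFIplR minus RFIpl, beside -0.01, -0.01 and 0.01 over all kept probes.

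With brightness class as a block, 3 members passed in RFIneg minus RFIpl, which is 3.45% of 87, where 6.63% of all kept probes passed. SLC38A3 and SLC26A6 were higher and SLC11A2 was lower in RFIneg, where 4.33% of all probes were higher and 2.3% lower. In RFIneg minus RFIplR no member and none of all probes passed (0.0%), with 10 members at an unadjusted p under 0.05 (11.5%, against 9.49% of all probes). In RFIplR minus RFIpl 9 members passed, or 10.3%, where 10.4% of all probes did. SLC7A2, SLC5A4 and SLC39A5 were higher in RFIplR, while SLC11A2, SLC16A7, SLC16A12, SLC25A27, SLC22A17 and SLC9A3R2 were lower, where 5.85% of all probes were higher and 4.51% lower. Without RFIpl 7 and 8, which had the highest summed level of keratinocyte and epithelial markers, the counts were 3, 0 and 6. In RFIplR minus RFIpl these 6 were 4 higher and 2 lower. SLC16A12, SLC16A7, SLC22A17, SLC39A5 and SLC9A3R2 were no longer called there, while SLC26A6 and SLC38A3 were. Without RFIpl 2 the counts were 3, 0 and 11. These counts are given without the share of all probes called, so they do not set solute carriers apart. With all arrays kept, any group difference was called for 7 members (8.05%, against 9.03% of all probes). The share of members called thus lay near or below that of all probes.

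**Figure D1:**
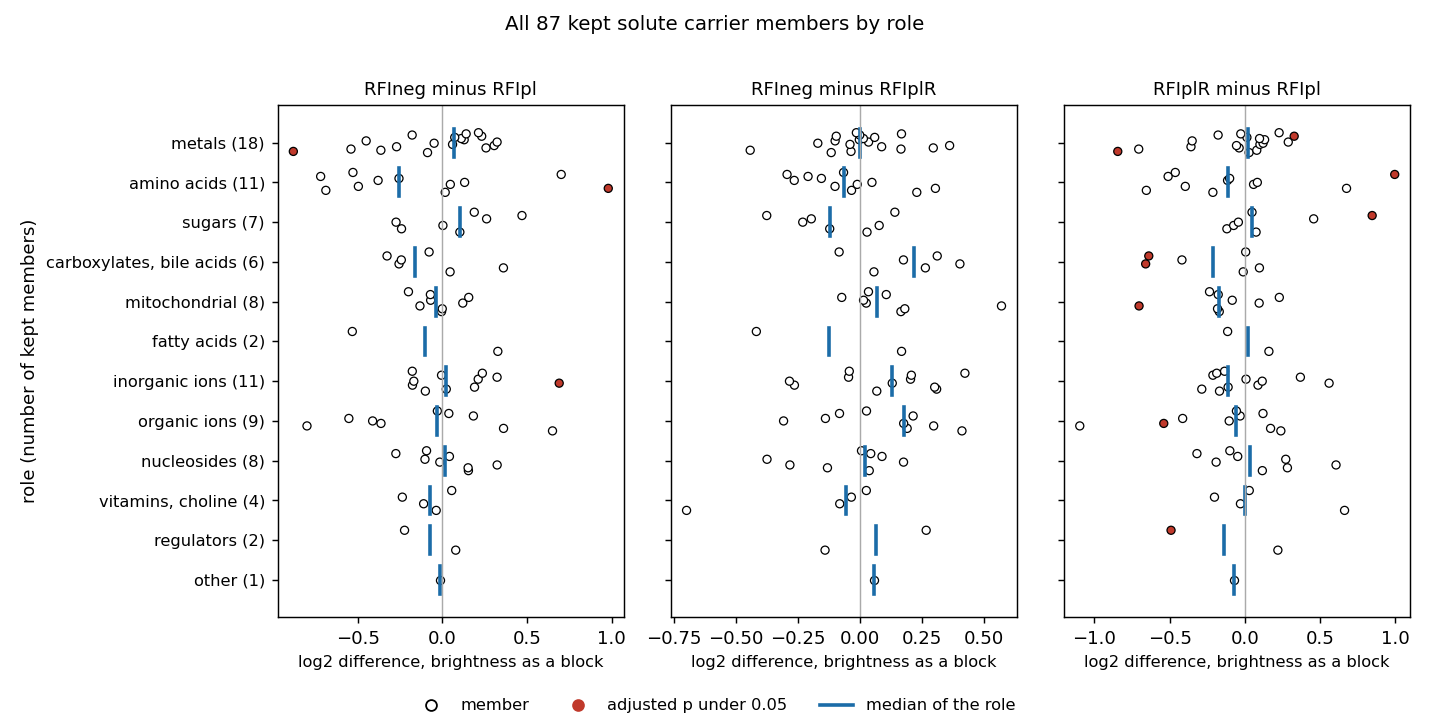
Log2 differences of all 87 kept solute carrier members with brightness class as a block, in 1 panel per comparison, with members grouped by role down the page. Each point is a member, red where the adjusted p was under 0.05, and blue bars are role medians. The role medians lie between -0.26 and 0.22, and called members number 3, 0 and 9 in the panels from left to right.

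Carriers of metals were the role with the most kept members, 18 of 19 on the array. With the block, 1 passed in RFIneg minus RFIpl (lower), none in RFIneg minus RFIplR and 2 in RFIplR minus RFIpl (1 higher, 1 lower). SLC11A2, which moves ferrous iron and other divalent metals into the cytosol together with protons, was called in both comparisons with RFIpl. Its probe was dim: it was well above background on 5 RFIneg, 4 RFIplR and 6 RFIpl arrays and on no dim array. It passed the filter through RFIpl alone, the group in which it was high, so its call is not independent of the filter. On bright arrays its lowest, median and highest values were -3.99, -3.52 and -3.22 in RFIneg, -4.35, -3.56 and -3.49 in RFIplR, and -3.55, -2.70 and -2.27 in RFIpl. On dim arrays it lay at -5.10 and -4.55 in RFIneg, at -4.04, -4.58 and -4.31 in RFIplR, and at -3.98 and -3.49 in RFIpl. In each class the RFIneg and RFIplR arrays lay low and the RFIpl arrays high, with RFIpl 3 the lowest bright array of its group and within the range of the others. The difference was -0.88 (SE 0.18, adjusted p = 0.00644) in RFIneg minus RFIpl and -0.84 (SE 0.18, adjusted p = 0.00541) in RFIplR minus RFIpl. In RFIneg minus RFIplR it was -0.04, with a 95% interval of -0.41 to 0.33. In the pooled fit the differences from RFIpl were -0.88 (adjusted p = 0.288) for RFIneg and -0.96 (adjusted p = 0.157) for RFIplR.

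Both differences of SLC11A2 kept their call with the block when any 1 of the 24 arrays was left out, with adjusted p of at most 0.0178 and 0.0149. Without RFIpl 7 and 8 they were -0.82 (adjusted p = 0.0303) for RFIneg and -0.79 (adjusted p = 0.0233) for RFIplR. Among bright arrays alone they were -0.81 (adjusted p = 0.0568) and -0.99 (adjusted p = 0.024). These repeats share the filter that kept the gene. With normexp background correction in the pooled fit, RFIplR minus RFIpl turned to 0.14 (adjusted p = 0.808), where the median of all probes moved to 0.20.

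SLC39A5, a zinc importer of the plasma membrane, was higher in RFIplR than in RFIpl by 0.33 with the block (SE 0.09, adjusted p = 0.0239). Its bright values were -0.97, -0.73 and -0.53 in RFIneg, -0.87, -0.67 and -0.49 in RFIplR, and -1.26, -1.07 and -0.73 in RFIpl (lowest, median, highest, here and below). The dim arrays of all groups lay far above, at 1.64 and 1.59 in RFIneg, at 1.76, 1.82 and 1.81 in RFIplR, and at 1.53 and 1.71 in RFIpl. The shift between classes, 2.52, was larger than any difference between groups, and the pooled estimate was 0.64 with a 95% interval of -0.56 to 1.84, against 0.14 to 0.52 with the block. Both kept probes passed with the block, in the same direction. Leaving out RFIpl 1 ended the call (adjusted p = 0.0518). So did leaving out RFIpl 7 and 8 (0.33, adjusted p = 0.0567), adding slide (0.30, adjusted p = 0.0682) and keeping bright arrays alone (0.39, adjusted p = 0.0756).

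Other zinc carriers did not pass. SLC30A5, a zinc carrier of the secretory pathway, differed by 0.40 in RFIneg minus RFIplR in the pooled fit (adjusted p = 0.999), and by 0.36 with the block (adjusted p = 0.453). Its bright arrays reached 1.57, 2.31 and 2.61 in RFIneg, 1.45, 1.71 and 2.25 in RFIplR, and 1.36, 1.85 and 2.0 in RFIpl, so that all groups overlapped. SLC30A1, which exports zinc from the cell, differed by -0.63 in RFIneg minus RFIplR in the pooled fit and by -0.44 with the block (adjusted p = 0.488). SLC30A7, of the Golgi membrane, differed by -0.20 in the pooled fit and by -0.17 with the block (adjusted p = 0.503), with an SD of only 0.19, 0.15 and 0.16 in RFIneg, RFIplR and RFIpl (n = 8 each). The zinc importers SLC39A14 and SLC39A7 had differences between -0.18 and 0.11 with the block in all 3 comparisons.

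Amino acid carriers had 11 of 23 members kept. With the block 1 was higher and none lower in RFIneg minus RFIpl, none passed in RFIneg minus RFIplR, and 1 was higher and none lower in RFIplR minus RFIpl. The probe named SLC38A3, a glutamine and histidine carrier, was higher in RFIneg. Its bright values were 3.02, 3.68 and 4.01 in RFIneg, 2.87, 3.43 and 3.48 in RFIplR, and 1.79, 2.50 and 3.53 in RFIpl. The dim values were 2.98 and 2.77 in RFIneg, 3.0, 2.79 and 2.31 in RFIplR, and 2.44 and 1.77 in RFIpl. RFIneg and RFIplR lay close together, while RFIpl ranged widely, with RFIpl 1, 2 and 4 at the low end and RFIpl 3 and 7 within the RFIneg range. The adipocyte markers LPL and CIDEC were low on the same arrays, with LPL at 5.21, 4.69 and 5.06 on RFIpl 1, 2 and 4 and at 6.09, 5.85 and 5.97 on RFIpl 3, 7 and 8. CIDEC was at 6.48, 6.57 and 6.23 on RFIpl 1, 2 and 4 and at 7.89, 7.30 and 7.40 on RFIpl 3, 7 and 8. The other kept adipocyte markers, ADIPOQ, FABP4, CD36, PLIN1 and LIPE, overlapped between these sets of arrays. ADIPOQ was at 8.09, 7.98 and 7.93 on RFIpl 1, 2 and 4 and at 8.19, 7.99 and 7.96 on RFIpl 3, 7 and 8. FABP4 had 8.48, 8.60 and 8.25 beside 8.62, 8.32 and 8.53. The part of LPL and CIDEC in the SLC38A3 difference was not tested. RFIneg minus RFIpl was 0.98 in both fits (with the block SE 0.22, adjusted p = 0.0131, and pooled adjusted p = 0.155). RFIplR minus RFIpl was 0.68 with the block (SE 0.23, adjusted p = 0.0568) and RFIneg minus RFIplR 0.30 (95% interval -0.16 to 0.77). The call in RFIneg minus RFIpl held with the block when any 1 array was left out, with an adjusted p of at most 0.0327. It ended with slide added to the block (adjusted p = 0.0593) and among bright arrays alone (1.05, adjusted p = 0.0668).

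SLC7A2, a carrier of arginine, lysine and ornithine, was higher in RFIplR than in RFIpl. On bright arrays it lay at 0.31, 1.0 and 1.31 in RFIneg, at 0.71, 1.01 and 1.56 in RFIplR, and at -1.25, 0.12 and 1.01 in RFIpl. On dim arrays it lay at -0.15 and -0.28 in RFIneg, at 0.38, 0.96 and 0.03 in RFIplR, and at -0.32 and -0.46 in RFIpl. RFIpl 4 was the lowest array, and RFIpl 3 was the highest of its group, near the RFIneg and RFIplR medians. RFIplR minus RFIpl was 1.0 with the block (SE 0.24, adjusted p = 0.011) and 0.91 in the pooled fit (adjusted p = 0.241), and no single array ended the call with the block. It ended with slide added (0.74, adjusted p = 0.067) and among bright arrays alone (1.03, adjusted p = 0.0677). RFIneg minus RFIpl was 0.70 in both fits (adjusted p = 0.0739 with the block).

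Of the remaining amino acid carriers, SLC7A7, which exchanges cationic for neutral amino acids, stood at 2.13 ± 0.40 in RFIneg, 2.19 ± 0.31 in RFIplR and 2.66 ± 0.39 in RFIpl (SD, n = 8 each). Its difference was -0.53 in RFIneg minus RFIpl and -0.46 in RFIplR minus RFIpl with the block (adjusted p = 0.084 and 0.114), and all 4 probes had the same sign in both comparisons. SLC7A10, a carrier of serine and other small neutral amino acids known from white adipocytes in mouse and human, spread most widely of the amino acid carriers. Its bright values were 0.39, 1.15 and 1.81 in RFIneg, 0.02, 1.07 and 3.36 in RFIplR, and 1.11, 2.11 and 3.33 in RFIpl. The differences of SLC7A10 were -0.72 in RFIneg minus RFIpl and -0.51 in RFIplR minus RFIpl with the block (adjusted p = 0.261 and 0.421), within an SD of 0.91 inside groups on bright arrays. SLC1A5, a glutamine exchanger, and SLC3A2, the heavy chain of several exchangers, had differences between -0.21 and 0.23 with the block.

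Sugar carriers had 7 of 9 members kept, of which 1 was higher and none lower in RFIplR minus RFIpl with the block, and none passed in the other comparisons. SLC5A4, a low-affinity sodium-linked glucose carrier in pig, lay on bright arrays at -0.31, 0.22 and 0.44 in RFIneg, at -0.03, 0.63 and 1.15 in RFIplR, and at -0.52, -0.04 and 0.22 in RFIpl. The dim values were -0.77 and 0.48 in RFIneg, -0.21, -0.47 and 0.29 in RFIplR, and -0.75 and -1.65 in RFIpl. On bright arrays 4 of 5 RFIplR values lay above all of RFIpl, with RFIplR 1 below its top. RFIplR minus RFIpl was 0.85 with the block (SE 0.21, adjusted p = 0.0138) and 0.75 in the pooled fit (adjusted p = 0.345). Among bright arrays alone it was 0.78 (adjusted p = 0.0511). RFIneg minus RFIpl was 0.47 with the block (adjusted p = 0.179) and RFIneg minus RFIplR -0.38 (adjusted p = 0.585). SLC5A10, a relative that carries mannose and fructose, had 0.46 in RFIplR minus RFIpl (adjusted p = 0.0819). The facilitative carriers SLC2A3, SLC2A8 and SLC2A11 had differences between -0.24 and 0.10 with the block, and none passed.

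**Figure D2:**
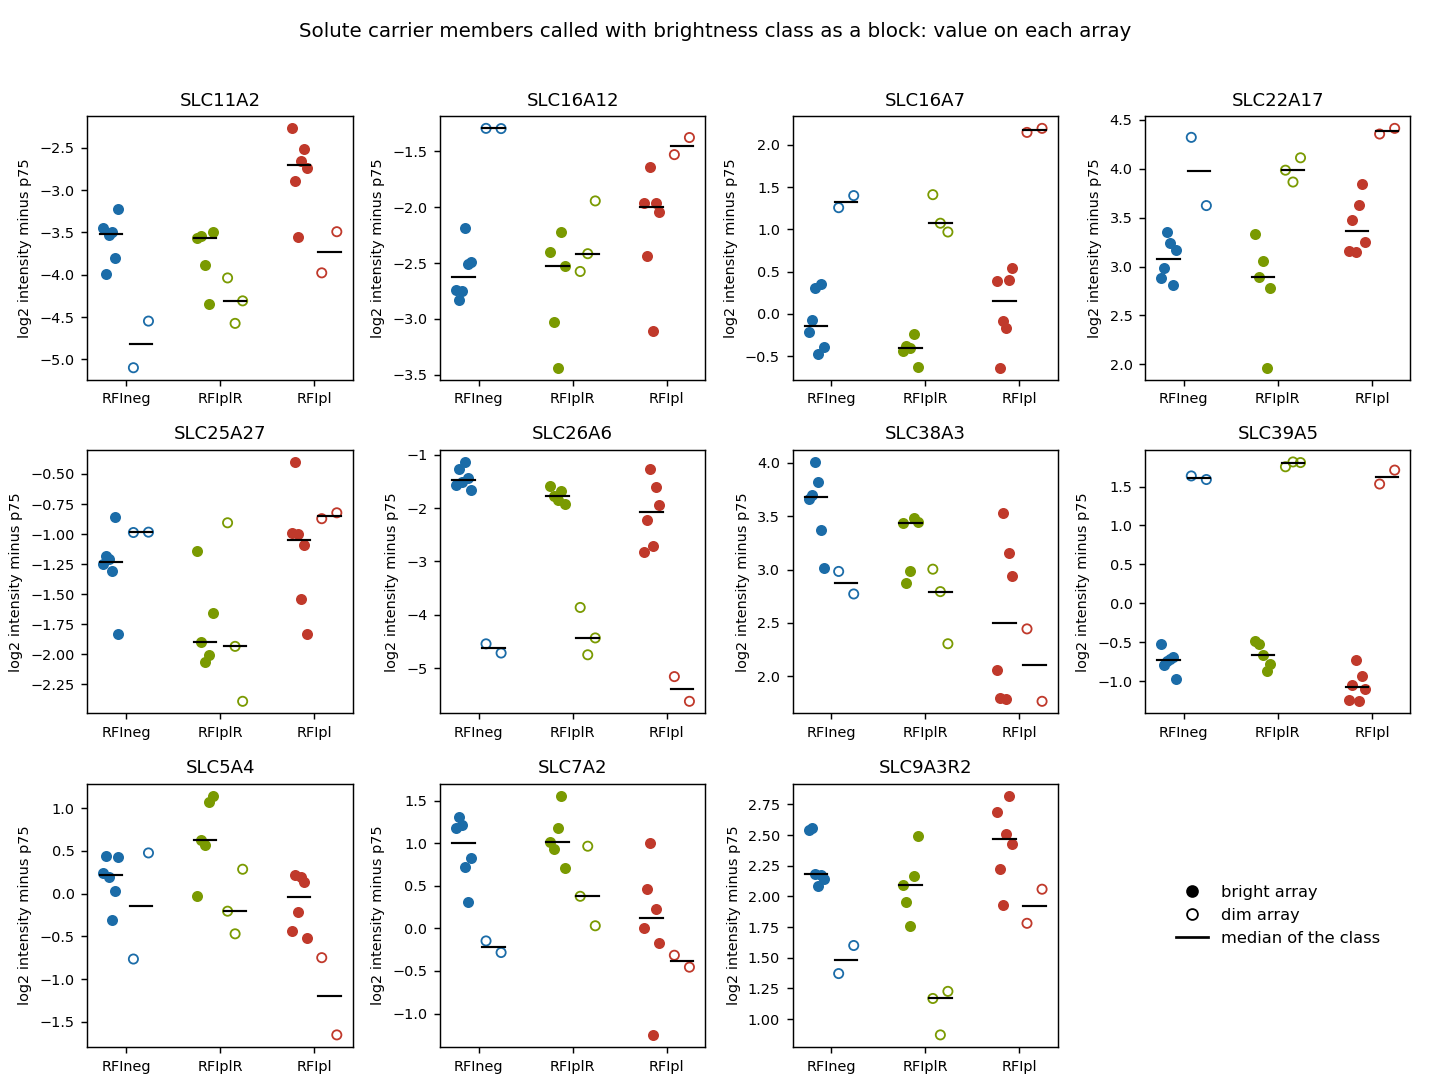
Values of the 11 members called with brightness class as a block, on each of the 24 arrays (log2 intensity minus the 75th percentile of the array), with RFIneg, RFIplR and RFIpl from left to right. Filled points are bright arrays, open points dim arrays and bars the median of each class. For SLC39A5 and SLC26A6 the classes lie 2.52 and 2.97 apart, more than the groups do.

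Carriers of lactate, pyruvate and other carboxylates, with the bile acid family, had 6 of 9 members kept. With the block 2 were lower and none higher in RFIplR minus RFIpl, and none passed in the other comparisons. SLC16A7, which moves lactate, pyruvate and ketone bodies together with protons, had bright values of -0.48, -0.14 and 0.36 in RFIneg, -0.63, -0.40 and -0.24 in RFIplR, and -0.64, 0.15 and 0.55 in RFIpl. On dim arrays it lay at 1.26 and 1.40 in RFIneg, at 1.41, 1.07 and 0.97 in RFIplR, and at 2.15 and 2.20 in RFIpl. RFIplR was lowest and narrow on bright arrays, RFIpl 2, the array with muscle transcripts, lay just below all of RFIplR, and on dim arrays RFIplR and RFIpl did not overlap. The dim arrays are few, and members not called in this comparison, such as SLC19A2 and SLC22A3, did not overlap there either. RFIplR minus RFIpl was -0.64 with the block (SE 0.17, adjusted p = 0.0169) and -0.43 in the pooled fit (adjusted p = 0.999). No single array ended that call, while leaving out RFIpl 7 and 8 together did (-0.54, adjusted p = 0.0676). Adding slide (adjusted p = 0.0579), adding replicate number (adjusted p = 0.0523) and keeping bright arrays alone (adjusted p = 0.181) also ended it.

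SLC16A12, a creatine carrier in human and rat, was lower in RFIplR than in RFIpl by 0.66 on the log2 scale with the block (log2 difference -0.66, SE 0.20, adjusted p = 0.0404). Its bright values were -2.83, -2.63 and -2.19 in RFIneg, -3.44, -2.52 and -2.22 in RFIplR, and -3.11, -2.0 and -1.64 in RFIpl, with RFIpl 4 the lowest of its group. On dim arrays it was at -1.30 and -1.30 in RFIneg, at -2.58, -2.42 and -1.94 in RFIplR, where it was not well above background, and at -1.53 and -1.38 in RFIpl. Each of 10 arrays ended this call when left out, with adjusted p of up to 0.0908 (without RFIplR 5). It also ended without RFIpl 7 and 8 (adjusted p = 0.114), with slide added (adjusted p = 0.107) and among bright arrays alone (adjusted p = 0.234). Normexp background correction gave 0.21 in place of the pooled difference of -0.56, where the median of all probes moved to 0.20. SLC16A1, which carries lactate in most tissues, had differences of 0.36 in RFIneg minus RFIpl, 0.26 in RFIneg minus RFIplR and 0.10 in RFIplR minus RFIpl with the block, and none passed.

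Mitochondrial carriers had 8 of 10 members kept, with 1 lower and none higher in RFIplR minus RFIpl with the block, and none past the test elsewhere. SLC25A27, a member of the uncoupling protein branch of the family best known from brain, was the lower one. Its bright values were -1.83, -1.23 and -0.86 in RFIneg, -2.06, -1.90 and -1.14 in RFIplR, and -1.83, -1.05 and -0.40 in RFIpl. On dim arrays it lay at -0.99 and -0.98 in RFIneg, at -0.91, -1.93 and -2.39 in RFIplR, and at -0.87 and -0.82 in RFIpl. RFIplR 1 and 2 were the highest of their group, and the highest array of all was RFIpl 2. RFIplR minus RFIpl was -0.70 with the block (SE 0.20, adjusted p = 0.0308) and -0.68 in the pooled fit (adjusted p = 0.225). Each of 8 arrays, RFIpl 2 among them, ended the call when left out, with adjusted p of up to 0.0615, as did adding slide (adjusted p = 0.0652) and keeping bright arrays alone (adjusted p = 0.145). In RFIneg minus RFIplR, SLC25A27 differed by 0.57 with the block (95% interval 0.15 to 0.99, adjusted p = 0.414). SLC25A3, the phosphate carrier of the inner membrane, and SLC25A6, an exchanger of ADP for ATP, had differences between -0.23 and 0.12 with the block, which did not pass.

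Carriers of sodium, protons, chloride, bicarbonate, calcium and phosphate had 11 of 21 members kept. With the block 1 was higher and none lower in RFIneg minus RFIpl, and none passed in the other comparisons. SLC26A6, an exchanger of chloride for oxalate, formate or bicarbonate, had bright values of -1.66, -1.47 and -1.14 in RFIneg, -1.93, -1.77 and -1.58 in RFIplR, and -2.82, -2.08 and -1.28 in RFIpl. It was not well above background on any dim array, where it lay at -4.54 and -4.72 in RFIneg, at -3.86, -4.75 and -4.43 in RFIplR, and at -5.16 and -5.62 in RFIpl. RFIneg was narrow and RFIpl wide, with RFIpl 1 and 4 lowest and RFIpl 3 and 7 within the RFIneg range. RFIneg minus RFIpl was 0.69 in both fits (with the block SE 0.19, adjusted p = 0.0339). In RFIplR minus RFIpl it was 0.56 with the block (adjusted p = 0.0662). Each of 10 arrays ended the call in RFIneg minus RFIpl when left out, with adjusted p of up to 0.0781 (without RFIpl 4). It also ended with scan day added (adjusted p = 0.0727), with replicate number added (adjusted p = 0.0635) and among bright arrays alone (adjusted p = 0.114). The other kept probe of the gene had a pooled difference of 0.28.

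SLC4A4, a sodium bicarbonate cotransporter, was 1 of 2 members whose RFIplR and RFIpl values did not overlap on bright arrays, where 3.07% of all kept probes did not. It lay at -2.06, -2.0 and -1.63 in RFIplR and at -2.62, -2.41 and -2.13 in RFIpl, and its difference was 0.37 with the block (SE 0.15, adjusted p = 0.111). The other such member, SLC25A43, a mitochondrial carrier chosen here after its values were seen, had a difference of 0.23 with the block (adjusted p = 0.426). SLC26A11, a sulfate carrier, differed by -0.32 in RFIneg minus RFIplR in the pooled fit and by -0.26 with the block (adjusted p = 0.633).

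Organic cation and anion carriers had 9 of 13 members kept, with 1 lower and none higher in RFIplR minus RFIpl with the block, and none past the test in the other comparisons. SLC22A17, a receptor for the iron-carrying protein lipocalin, was the lower one. Its bright values were 2.81, 3.08 and 3.35 in RFIneg, 1.97, 2.90 and 3.33 in RFIplR, and 3.15, 3.37 and 3.85 in RFIpl. The dim values were 4.32 and 3.62 in RFIneg, 3.99, 3.87 and 4.11 in RFIplR, and 4.36 and 4.41 in RFIpl. All bright RFIpl values lay above 4 of 5 RFIplR values, and RFIplR 7 was far below its group. RFIplR minus RFIpl was -0.54 with the block (SE 0.16, adjusted p = 0.0326) and -0.41 in the pooled fit (adjusted p = 0.922). Of its 2 kept probes 1 passed with the block, and both had this sign. Each of 5 arrays ended the call when left out, with an adjusted p of 0.0626 without RFIplR 7. So did leaving out RFIpl 7 and 8 (adjusted p = 0.0819), adding replicate number (adjusted p = 0.0669) and keeping bright arrays alone (adjusted p = 0.0993).

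SLC18B1, which loads polyamines into vesicles, was the 1 member whose RFIneg and RFIpl values did not overlap on bright arrays, where 0.913% of all kept probes did not. It lay at -2.83, -2.66 and -2.46 in RFIneg and at -3.79, -3.01 and -2.86 in RFIpl, and its difference was 0.36 with the block (SE 0.14, adjusted p = 0.13). On dim arrays the RFIneg values, -2.69 and -2.57, overlapped the RFIpl values, -2.69 and -2.58. No member was without overlap between RFIneg and RFIplR, where 0.542% of all kept probes were. SLC22A16, a carnitine carrier, had the widest spread of all kept members on bright arrays, with an SD of 0.93 inside groups. It lay at -3.17, -1.27 and 0.31 in RFIneg, at -2.84, -1.36 and -0.98 in RFIplR, and at -1.12, -0.77 and -0.29 in RFIpl, and RFIplR minus RFIpl was -1.10 with the block (SE 0.41, adjusted p = 0.0923).

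**Figure D3:**
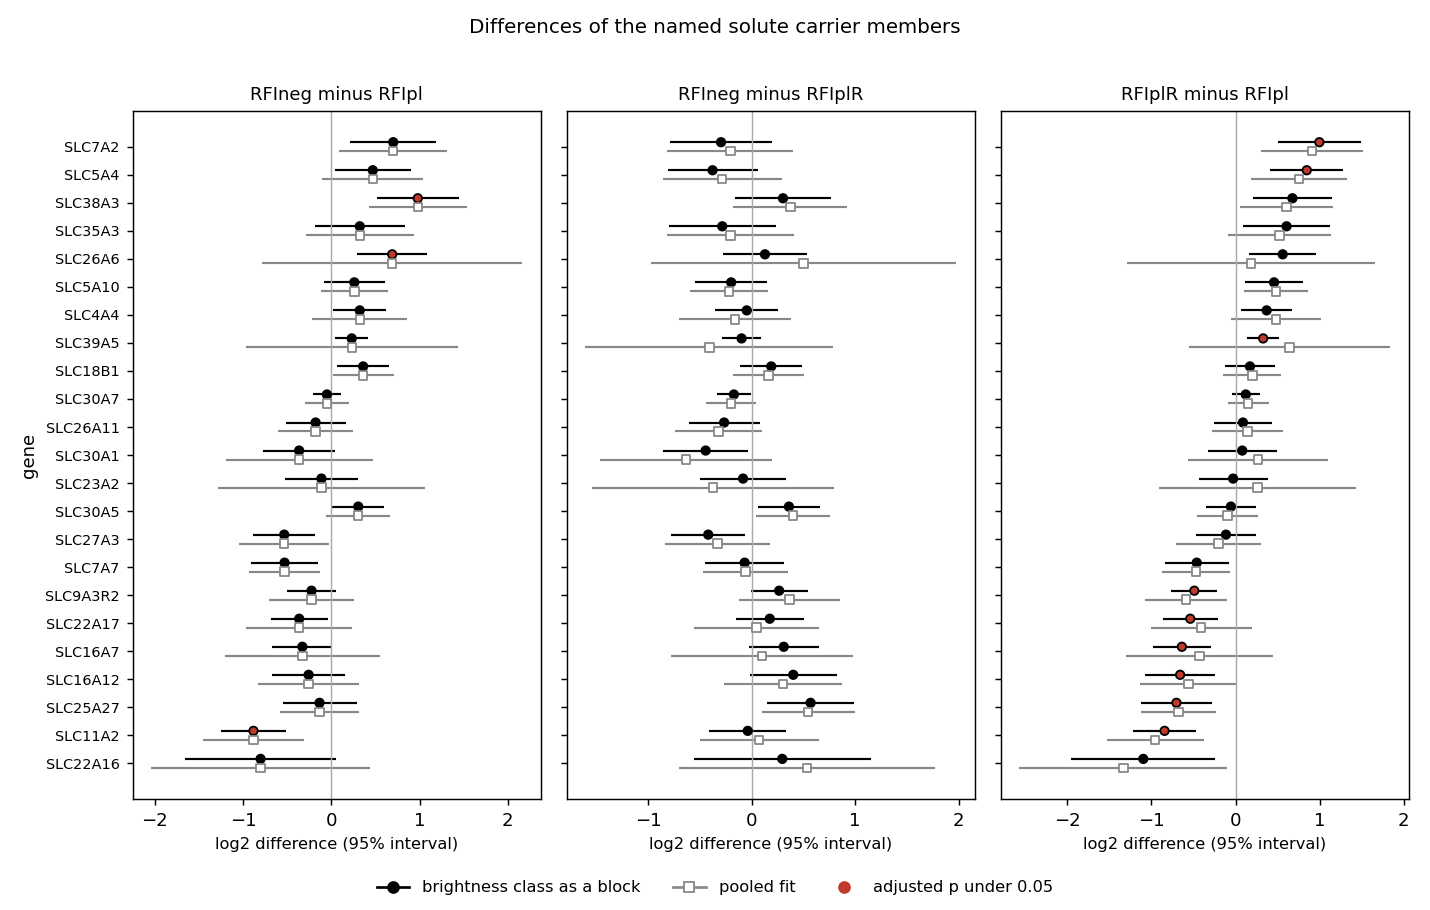
Log2 differences of the 23 named members in the 3 comparisons, with 95% intervals, from the fit with brightness class as a block (circles, black lines) and from the pooled fit (squares, grey lines). Red marks an adjusted p under 0.05. Red points occur with the block alone, for 3 members in RFIneg minus RFIpl and 9 in RFIplR minus RFIpl.

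The smaller roles had few members. SLC27A3, a fatty acid activating protein of the fatty acid transport family, lay at 2.04 ± 0.38 in RFIneg, 2.36 ± 0.45 in RFIplR and 2.57 ± 0.60 in RFIpl (SD, n = 8 each). Its difference was -0.53 in RFIneg minus RFIpl (adjusted p = 0.0621 with the block), and of the 2 kept fatty acid carriers none passed. SLC9A3R2 is a scaffold that binds the sodium and proton exchanger SLC9A3 and other membrane proteins, and not itself a carrier. It was lower in RFIplR than in RFIpl, with bright values of 2.08, 2.18 and 2.56 in RFIneg, 1.76, 2.09 and 2.49 in RFIplR, and 1.93, 2.47 and 2.82 in RFIpl. On dim arrays SLC9A3R2 lay at 1.37 and 1.60 in RFIneg, at 1.17, 0.87 and 1.23 in RFIplR and at 1.78 and 2.06 in RFIpl. The last pair of groups did not overlap there, as was also so for members not called, such as SLC19A2 and SLC22A3. The difference was -0.49 with the block (SE 0.13, adjusted p = 0.022) and -0.59 in the pooled fit (adjusted p = 0.418). Both probes had this sign and both passed with the block, and leaving out RFIpl 6 ended the call (adjusted p = 0.0596). It also ended without RFIpl 7 and 8 (adjusted p = 0.0643), with slide added (adjusted p = 0.0748), with replicate number added (adjusted p = 0.0537) and among bright arrays alone (adjusted p = 0.251).

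None of the 8 kept carriers of nucleosides and nucleotide sugars passed at the probe used. SLC35A3, which brings an activated amino sugar into the Golgi, had 0.61 in RFIplR minus RFIpl with the block (adjusted p = 0.125). Of its 3 kept probes 2 passed in that comparison with the block, at probes that were not the brightest, and 1 passed in RFIneg minus RFIpl. None of the 4 kept vitamin and choline carriers passed. The probe named SLC23A2, a vitamin C carrier, had differences between -0.11 and -0.03 with the block in the 3 comparisons. SLC19A2, a thiamine carrier, differed by -0.70 in RFIneg minus RFIplR with the block (adjusted p = 0.4).

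The shift between array classes differed from member to member. The mean of dim minus bright arrays ranged from -3.22 for SLC19A2 to 4.0 for SLC17A4, with a median of 0.46 over the 87 members and -0.05 over all kept probes, and 51 members were higher on dim arrays. The GC content of the member probes was 35% to 60% with a median of 45.0%, against 41.7% over all kept probes. Across the 87 probes, which share the same 24 arrays, Spearman's rho of GC content and the shift was 0.332, and over all kept probes it was 0.287. The SLC39A5 probe has 55.0% GC and a shift of 2.52, while the probes of SLC26A6 and SLC16A7 printed above share 45.0% GC and have shifts of -2.97 and 1.62.

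**Figure D4:**
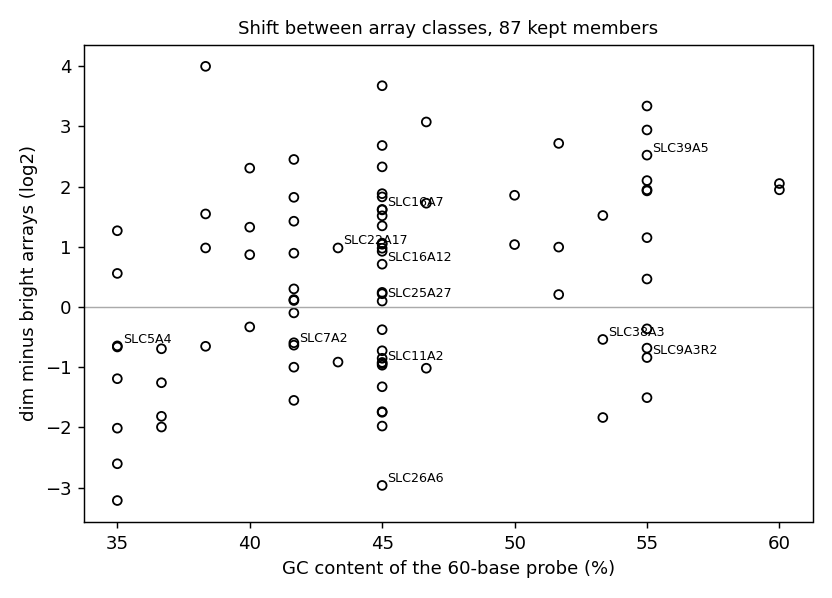
Shift between array classes (mean of the 7 dim arrays minus mean of the 17 bright arrays, log2) against the GC content of the probe in percent, for the 87 kept members, with the 11 members called with the block labelled. Shifts run from -3.22 to 4.0, and members of 1 GC content of 45.0% cover most of that range.

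Within groups on bright arrays the median SD was 0.333 for members and 0.303 for all kept probes. RFIneg 5 was the highest of the 17 bright arrays for 9 members and the lowest for 12, together 24.1% of members, where it was at an end for 10.9% of all kept probes. RFIpl 2 was the highest for 6 members and the lowest for 14, and at an end for 27.4% of all probes.

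A list of other membrane transporters, whose symbols do not begin with SLC and a family number, was set beside the members. It held ABC transporters, aquaporins, sodium and calcium pumps, uncoupling proteins and others, and 26 of its 35 genes were kept. UCP2 and UCP3 are themselves solute carriers, of the same family as SLC25A27, and were not members because of their symbols. In RFIneg minus RFIpl UCP3 alone passed in the pooled fit (1.57, adjusted p = 0.0459), where 0.206% of all kept probes did. With the block 4 passed, where 6.63% of all kept probes did, all higher. With the block these were UCP3 (1.57, adjusted p = 0.00536), an uncoupling protein homologue, AQP7 (0.79, adjusted p = 0.0169), the glycerol channel of fat cells, AQP11 (0.99, adjusted p = 0.0206), a water and glycerol channel, and ABCD4 (0.38, adjusted p = 0.044). In RFIneg minus RFIplR none passed in either fit, with 0 and 1 at an unadjusted p under 0.05. In RFIplR minus RFIpl UCP3 alone passed in the pooled fit (1.72, adjusted p = 0.0253), where 0.297% of all kept probes did. With the block 3 were higher and 3 lower, where 10.4% of all kept probes passed. The 5 with the smallest p there were UCP3 (1.78, adjusted p = 0.00147), ABCD4 (0.53, adjusted p = 0.0056), ABCC8 (-1.02, adjusted p = 0.0223), a regulator of a potassium channel, AQP5 (-0.58, adjusted p = 0.0229), a water channel, and UCP2 (-0.77, adjusted p = 0.0457).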

How the data were processed

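Per the file headers, Feature Extraction 10.7.3.1 made the intensity values, which are background-subtracted and not scaled between arrays. The authors also deposited log2 values, which equalled log2 processed intensity after subtraction of the array median and covered 73 of the 87 members. The submitters' processing notes name R 2.10.0.

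The 75th percentile of each array was subtracted from log2 processed intensity (floor 1). Control spots and spots marked non-uniform were not used, and spots of 1 probe were averaged. Probes missing on more than 6 arrays were dropped. Names came from the files' name column and RefSeq accessions (Sscrofa11.1, names only). All 3 comparisons came from 1 limma 3.58.1 fit (lmFit, eBayes, R 4.3.3) over 24 arrays and all 28601 kept probes, with Benjamini-Hochberg adjustment. Adjusted p-values are limma's and two-sided. Tables and figures were made with Python 3.11.15, pandas 2.3.3, matplotlib 3.10.9 and numpy 2.4.6. The number of arrays limits the precision, and intervals of the pooled fit also hold the shift between array classes, as for SLC39A5. Whether the recovery and the false share given next hold for a mix of bright and dim arrays was not tested. Neither was given for the fit with the block. Tested on simulated data for RFIneg minus RFIpl over 28601 probes, the pooled fit recovered 29% of changes of 1 and 74% of changes of 2 on the log2 scale, with 3.74% false among calls.

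Members and lists were chosen with earlier results of these data known. Named were members called in the pooled fit, up to 12 called with the brightness block, the 6 with the smallest p per comparison, and the smallest p of any group difference in each role of 3 or more kept members. Other members are examples chosen after their values were seen. Roles were assigned by hand from the family numbers.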

Additional observations from a re-analysis of the deposited data

Results flagged for a closer look

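Among 69 sets of 8 arrays tested for an outlying array (each named member in each group), 2 had one. Chance flags about 1 in 20 sets, and each set mixes bright and dim arrays, which widens its range and can hide an outlying array. SLC18B1 on RFIplR 2, a dim array, was at -2.08, above the other RFIplR arrays, which lay between -3.11 and -2.68. SLC25A27 on RFIneg 8, a bright array, was at -1.83, below the other RFIneg arrays, which lay between -1.31 and -0.86.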

How the results depend on the processing

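No member was called in the pooled fit. With brightness class as a block the counts were 3 in RFIneg minus RFIpl, 0 in RFIneg minus RFIplR, 9 in RFIplR minus RFIpl and 7 for any group difference. Array weights gave 7, 0, 4 and 6, and bright arrays alone 0, 0, 1 and 1. With array weights 27.6%, 10.3%, 24.1% and 29.9% of members had an unadjusted p under 0.05, against 24.9%, 12.3%, 24.5% and 28.3% of all probes. Among bright arrays alone these were 14.9%, 4.6%, 16.1% and 14.9%, against 18.6%, 6.12%, 20.7% and 19.5%. Scan day as a block gave 1 in RFIplR minus RFIpl (SLC7A2), with 17.2% of members and 11.5% of all probes at an unadjusted p under 0.05. Of the alternatives added after the data were seen, brightness and slide together gave 2, 0, 3 and 2, brightness and scan day 3, 0, 10 and 7, and brightness and replicate block 2, 0, 6 and 3. Without RFIpl 7 and 8 the brightness fit gave 3 for any group difference. In RFIneg minus RFIplR no alternative called a member. Leaving out 1 array moved the pooled count in RFIneg minus RFIpl between 0 and 1 (1 without RFIpl 3). With the brightness block it moved between 2 and 9 in RFIneg minus RFIpl (5 without RFIneg 8, 9 without RFIpl 3), between 6 and 11 in RFIplR minus RFIpl, and between 3 and 12 for any group difference (12 without RFIpl 3). For any group difference it was 4 without RFIneg 2, RFIpl 5, RFIpl 6, RFIplR 3, RFIplR 4 or RFIplR 5, and 3 without RFIpl 1, RFIpl 8 or RFIplR 6. The counts with slide, scan day or replicate block added to brightness are given without the share of all probes called. So are the counts with 1 array left out, or with RFIpl 7 and 8 left out. None of these counts therefore sets solute carriers apart. The median difference of members ranged from -0.092 to 0.035, -0.091 to 0.019 and -0.003 to 0.067 when 1 array was left out.

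Of 630 values of named members under alternatives other than leaving out 1 array, 562 kept direction and side of the threshold, 63 passed it and 5 changed sign. With normexp background correction SLC11A2 turned to 0.136 and SLC16A12 to 0.211 in RFIplR minus RFIpl, and SLC30A7 to 0.054 in RFIneg minus RFIplR. The median of all probes with that correction was 0.204 in RFIplR minus RFIpl and -0.194 in RFIneg minus RFIplR. Within scan day 2, SLC26A6 turned to -0.857 in RFIneg minus RFIpl and SLC30A1 to 0.099 in RFIneg minus RFIplR. The groups held unlike mixes of brightness class on that day. RFIneg 1 and 7 were dim, RFIpl 4 and 7 bright, RFIpl 5 and 6 dim, RFIplR 2, 4 and 6 dim and RFIplR 8 bright. Among dim arrays alone SLC26A6 differed by 0.76 in RFIneg minus RFIpl, the direction of the main fit. The cause of the sign changes was not tested. With group means and brightness class taken out, the deviations of same-numbered arrays correlated at -0.274 to 0.329, with 3 of 24 pairs above 0.1, so the numbers do not pair the arrays. The replicate block in the pooled fit called 0 members in each comparison. Low signal limits SLC11A2 and SLC26A6, which were not well above background on any dim array.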
